A study of Mus musculus with 18 samples.

Results

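The genes described here are 6 genes of zinc handling, chosen by symbol: the metallothioneins Mt1 and Mt2, the metal-responsive transcription factor Mtf1, the zinc exporter Slc30a1 (ZnT1) and the zinc importers Slc39a8 (ZIP8) and Slc39a14 (ZIP14). They are 6 of the 22598 genes counted in each library, and all 6 passed the filter on low counts, which left 11563 genes for testing. They were measured by RNA sequencing in primary macrophages grown from mouse bone marrow, labelled wild type, in 18 libraries. The 6 groups of 3 libraries were an untreated control, IFNg (the cytokine interferon-gamma), and IFNg given together with 1 of 4 additions for 18 h: TNF (the cytokine tumour necrosis factor), IL1b (the cytokine interleukin-1 beta), LPS (bacterial lipopolysaccharide) or hypoxia. No addition was given without IFNg, so the effect of an addition cannot be told apart from its combination with IFNg. The sources used here do not give the doses, the oxygen level, or the strain, sex and age of the mice. The titles mark the libraries of each group M1 to M3, called libraries 1 to 3 here. The labels do not say that these came from separate animals or cultures, so p-values measure the spread between these libraries, which may be technical.

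Metallothioneins are small, cysteine-rich proteins that hold zinc and copper in the cytosol and release them again. When free zinc rises, the zinc-finger factor encoded by Mtf1 binds short DNA motifs called metal response elements and switches on Mt1, Mt2 and Slc30a1, whose product pumps zinc out across the plasma membrane. Slc39a8 and Slc39a14 encode related importers that carry zinc, and also manganese, iron and cadmium, into the cytosol. Macrophages are known for moving these metals away from, or onto, the microbes they ingest, and metallothionein genes are known to respond to metals, glucocorticoids, inflammatory cytokines and low oxygen.

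The annotated promoter windows of the 3 genes that carry several metal response cores are shown because these genes are the textbook targets of the Mtf1 protein. Each line gives the 250 bases before the RefSeq start site, 5′ to 3′ on the gene's strand (plus for all 3), in build GRCm38.p6, with the metal response cores in capitals. They lie at chr8:94178839-94179088 for Mt1, chr8:94172368-94172617 for Mt2 and chr1:191906531-191906780 for Slc30a1.
Mt1: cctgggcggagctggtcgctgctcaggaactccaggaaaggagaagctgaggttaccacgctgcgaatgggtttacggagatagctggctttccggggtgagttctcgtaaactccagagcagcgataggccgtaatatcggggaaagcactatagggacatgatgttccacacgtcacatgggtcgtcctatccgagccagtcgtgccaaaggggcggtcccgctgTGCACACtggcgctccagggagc
Mt2: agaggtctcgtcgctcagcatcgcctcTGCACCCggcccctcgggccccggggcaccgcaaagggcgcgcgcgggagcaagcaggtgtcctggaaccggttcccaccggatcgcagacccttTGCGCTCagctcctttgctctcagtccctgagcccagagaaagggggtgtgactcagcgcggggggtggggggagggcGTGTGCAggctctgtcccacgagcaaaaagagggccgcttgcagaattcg
Slc30a1: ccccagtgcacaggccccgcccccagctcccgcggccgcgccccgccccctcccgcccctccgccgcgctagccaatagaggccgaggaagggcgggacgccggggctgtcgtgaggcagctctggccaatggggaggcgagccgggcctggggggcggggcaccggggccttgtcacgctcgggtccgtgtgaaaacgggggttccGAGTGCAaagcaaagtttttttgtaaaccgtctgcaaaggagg

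Cores were searched as TGCACNC or TGCGCNC on both strands, counting sites that do not overlap, over these 250 bases and the 50 bases after the start. The Mt2 window held 4 cores, a number reached by 0.296% of the 32817 RefSeq mouse promoter windows. Mt1 held 3 cores, reached by 1.31% of windows, and Slc30a1 held 2, reached by 6.15%. The Mtf1 window held 0 cores, and of the 2 Slc39a8 windows 1 held 0 and the other 1, where 25.7% of all windows held at least 1. Slc39a14 had no entry in the promoter table. Cores of the hypoxia response element, searched as ACGTG or GCGTG on both strands, numbered 2 in each metallothionein window, which 17.3% of all windows reached, 1 for Slc30a1, 0 for Mtf1, and 0 and 2 in the windows of Slc39a8, where 43.8% of windows held at least 1. The motifs TTCNNNGAA (STAT, held by 8.29% of all windows) and CACGTG (E-box, held by 7.15%) had 0 matches on either strand in the windows of Mt1, Mt2, Mtf1 and Slc30a1, and the second Slc39a8 window held 1 E-box, which overlaps 1 of its 2 hypoxia cores. The antioxidant response core TGACNNNGC, held by 12.4% of all windows, had 1 match in Mt2, in Slc30a1 and in the first Slc39a8 window and 0 in Mt1 and Mtf1. These matches describe letters in a window and are neither sites of binding nor causes.

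Further cores stand just after the annotated starts, in the stretch that precedes the start codon of the principal GENCODE transcript. They are shown with 4 bases on either side because the letters TATAAA, the usual form of a TATA box, follow rather than precede them: TATAAA begins after 128 of the 229 leader bases of Mt1 and after 89 of the 184 of Mt2. The first 2 of the Mt1 cores also fall in the 50 bases after the RefSeq start that were counted above. All cores of both leaders lie before TATAAA, the leaders of Slc30a1 and Slc39a8 held 1 core each, and those of Mtf1 and Slc39a14 held 0. Only the metal response core was searched in the leaders. The counts of the hypoxia, STAT, E-box, antioxidant and NF-kappaB motifs above therefore leave out the bases just before TATAAA in Mt1 and Mt2.
Mt1 leader, bases 10 to 16: gctcTGCACTCcgcc
Mt1 leader, bases 28 to 34: aaagTGCGCTCggct
Mt1 leader, bases 92 to 98: tgctGGGTGCAaacc
Mt1 leader, bases 106 to 112: ccttTGCGCCCggac
Mt2 leader, bases 13 to 19: gggcGTGTGCAggcg
Mt2 leader, bases 32 to 38: gggcGCGTGCAtggt
Mt2 leader, bases 66 to 72: ctttTGCGCTCgacc

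Mt2 (ENSMUSG00000031762) and Mt1 (ENSMUSG00000031765) are neighbours on the plus strand of mouse chromosome 8, at chr8:94172664-94173568 and chr8:94179082-94180327 in build mm10, with 5513 bases between them. Their principal coding sequences are both 186 bases long and share 148 bases, 79.6%, without gaps. The longest identical run is 20 bases, shorter than the 50 bases of a read, and no 50-base window of the coding sequence of any of the 6 genes was found in a transcript of another gene. Bases counted outside these coding sequences were not searched. The widths over which the authors' files count Mt1 and Mt2, 485 and 259 bases, both exceed their principal coding length. Their levels per kilobase are therefore lower than they would be over 186 bases, and more so for Mt1. The counted width of Slc39a14, 1640 bases, likewise exceeds its principal coding length of 1470 bases. Mtf1 (ENSMUSG00000028890) lies at chr4:124802104-124849800, Slc30a1 (ENSMUSG00000037434) at chr1:191906767-191913247 and Slc39a8 (ENSMUSG00000053897) at chr3:135825279-135888572, all on the plus strand, and Slc39a14 (ENSMUSG00000022094) lies on the minus strand at chr14:70303469-70351425. Mt2, Mtf1, Slc30a1 and Slc39a8 each overlap a gene on the opposite strand with 0 coding bases shared. Whether counting used strand is not given in the sources used here.

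The libraries held 12270565 to 20952799 counts. The macrophage markers, Adgre1, Csf1r, Cd68 and 7 others, summed to 13760 to 27330 CPM in a library (CPM is a gene's share of the counts, scaled between libraries). Cd3e, Cd3d and Cd3g of T cells, Ms4a1 and Pax5 of B cells, and Hba-a1 and Hbb-bs of red cells had 0 counts in every library. Whether reads of these markers could be told apart from those of similar genes was not checked. Their 0 counts therefore do not show that such cells were absent. Of the other T and B cell markers, Cd4 stood at 4.996 CPM in the control and 0.978 CPM with IFNg, a difference that was not called, and Cd79b stood at 5.52 CPM with IFNg, 0.864 with TNF and 1.73 with LPS, both called lower by edgeR's test, and 14.3 with hypoxia, called higher. Markers of granulocytes and their precursors were low and moved with 2 of the additions. Their summed level was 106 to 125 CPM with IFNg, 8.17 to 14.4 CPM with TNF and 22.3 to 35.8 CPM with LPS, with 8 of 8 tested markers lower with TNF and 7 of 8 lower with LPS by edgeR's test. Under hypoxia 2 markers of cell types other than macrophages were higher than with IFNg, Pf4 of megakaryocytes (58.5 against 25.5 CPM) and Cd79b of B cells (14.3 against 5.52 CPM). Of the 10 macrophage markers, edgeR called 4 higher and 0 lower with hypoxia, beside 25.2% of all tested genes called. It called 3 higher and 5 lower with TNF, beside 44.7%, and 3 higher and 0 lower with LPS, beside 20.3%. For IFNg against control it called 2 higher and 5 lower, beside 23.6%. The part of these markers in the results below was not tested, and in such bulk RNA fewer cells of a type and less RNA per cell cannot be told apart.

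Against IFNg alone, the addition of TNF moved all 6 genes, hypoxia and LPS moved 3 each, and IL1b moved none past the test. The 4 additions are each compared with the same 3 IFNg libraries, so these comparisons are not independent of one another. A gene was called changed at a Benjamini-Hochberg adjusted p under 0.05 in edgeR's quasi-likelihood test, adjusted over all 11563 genes. With TNF, 5 of the 6 genes were higher and 1 was lower, where 44.7% of all tested genes were called (22.1% higher, 22.6% lower), and the median log2 fold change of the 6 was 1.67 beside -0.05 over all tested genes. With libraries scaled by the totals behind the authors' RPKM values, 4 were higher and 1 was lower, with a median of 1.35. These RPKM totals shift the median of all genes by -0.32 in this comparison. With 1 library left out at a time, 4 to 6 genes were called with TNF. With LPS, 3 were higher, where 20.3% of tested genes were called (10.2% higher, 10.1% lower), with a median of 0.98 beside -0.0036. With hypoxia, 3 were higher, where 25.2% of tested genes were called (13.5% higher, 11.8% lower), with a median of 0.23 beside -0.01; with the RPKM totals, which shift the median of all genes by -0.245, 2 were higher and their median was -0.02. With IL1b, 0 of 6 were called, where 0.303% of tested genes were called. DESeq2 called 0 of 6 as well, and 0 of 6 had an unadjusted edgeR p under 0.05. IFNg against control gave 1 higher and 1 lower, where 23.6% of tested genes were called (13.5% higher, 10% lower), with a median of -0.47 beside -0.02.

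**Figure D1:**
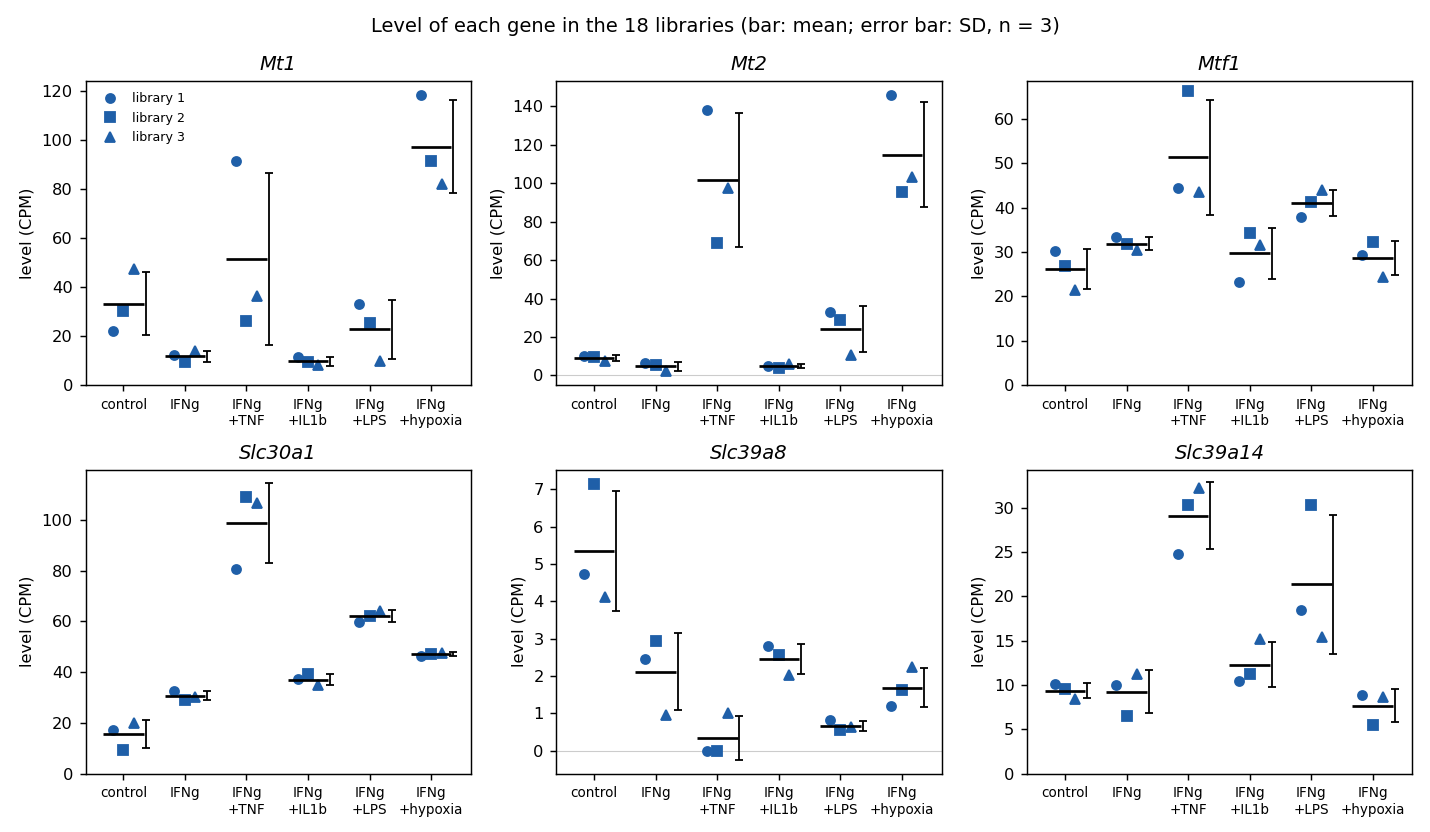
Level of each of the 6 genes (CPM, linear axes that differ between panels) in the 18 libraries, by group, with the bar at the mean and the error bar showing the SD of 3 libraries. The Mt2 libraries with TNF (68.8 to 138 CPM) and with hypoxia (95.6 to 146 CPM) stand above those of every other group, while Slc39a8 is highest in the control and is at 0 in 2 of the 3 TNF libraries.

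Mt1 fell with IFNg and rose when TNF or hypoxia was added. Its level was 22.0, 30.4 and 47.3 CPM in control libraries 1, 2 and 3 and 12.2, 9.42 and 13.9 CPM in those with IFNg. Every IFNg library was below every control library, and the level fell by 1.49 on the log2 scale (SE 0.47, edgeR adjusted p = 0.0289). That call was lost when any 1 of the 3 IFNg libraries or control library 3 was left out (adjusted p from 0.0634 to 0.132) and without the filter on low counts (adjusted p = 0.0596). With TNF the libraries read 91.7, 26.2 and 36.4 CPM, all above IFNg alone, with library 1 far above the other 2. The log2 fold change was 2.12 ± 0.47 (SE, edgeR adjusted p = 0.00157), and it was 1.40 without TNF library 1 (adjusted p = 0.00674).

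Hypoxia gave the highest mean of Mt1, with libraries at 119, 91.7 and 82.0 CPM, all above every IFNg and every control library. The log2 fold change from IFNg was 3.04 ± 0.48 (SE, edgeR adjusted p = 0.000204), an 8.25-fold rise. LPS gave 33.1, 25.4 and 9.69 CPM, so that library 3 lay within the IFNg range and the groups overlapped. The LPS difference of 0.95 ± 0.46 was not called (edgeR adjusted p = 0.183, 95% interval -0.04 to 1.94). With IL1b the level was 11.5, 9.32 and 8.08 CPM, overlapping IFNg alone.

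From highest to lowest mean, Mt1 ran from hypoxia through TNF, control, LPS and IFNg to IL1b, and no neighbouring pair in that order differed past the test. Without TNF library 1 the TNF mean was 31.3 CPM, below the control mean of 33.3 CPM, and hypoxia then differed from TNF past the test (1.64, adjusted p = 0.00345). Hypoxia stood above control by 1.55 ± 0.45 on the log2 scale (SE, edgeR adjusted p = 0.0121; 0.0505 without control library 1), whereas TNF did not differ from control past the test (0.63 ± 0.45, adjusted p = 0.260; -0.09 without TNF library 1).

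Mt2 showed the largest rises of the 6 genes. Its level was 6.62, 5.18 and 2.19 CPM with IFNg alone, 138, 68.8 and 97.3 CPM once TNF was added, and 146, 95.6 and 103 CPM under hypoxia. The lowest TNF or hypoxia library was far above the highest IFNg library. Mt2 rose by 4.42 ± 0.43 on the log2 scale with TNF (SE, edgeR adjusted p = 1.55e-07), a 21.4-fold rise, and 4.60 ± 0.43 with hypoxia (adjusted p = 4.15e-07), a 24.3-fold rise. TNF and hypoxia did not differ from each other past the test for Mt2, with a hypoxia-minus-TNF difference of 0.18 and a 95% interval of -0.58 to 0.94.

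LPS raised Mt2 too, but to a lower level. The LPS libraries read 32.7, 29.0 and 10.7 CPM, all above IFNg, with library 3 again the lowest. The rise was 2.36 ± 0.41 on the log2 scale (SE, edgeR adjusted p = 0.000361). Mt2 was lower with LPS than with TNF by 2.07 ± 0.38 on the log2 scale (adjusted p = 0.000504). With IL1b the level was 4.71, 4.02 and 5.83 CPM, within the IFNg range, and the difference was 0.03 with a 95% interval of -0.88 to 0.94.

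Control libraries held 10.1, 9.35 and 7.39 CPM of Mt2, each above every IFNg library, yet the difference of -0.92 ± 0.41 with IFNg was not called (edgeR adjusted p = 0.123). With the library number added to the model as a block it was called (-0.97, edgeR adjusted p = 0.0402), but no label says what the numbers mark. In the order of group means, hypoxia and TNF came first without a called difference, LPS was below TNF and above control past the test, and control, IL1b and IFNg did not differ as neighbours. Per kilobase of counted width, Mt2 reached 443 ± 105 CPM per kb under hypoxia (SD, n = 3), above 97.7% of tested genes, and Mt1 201 ± 39.2 CPM per kb, above 94.8%. With IFNg alone, Mt2 stood at 18.0 ± 8.73 and Mt1 at 24.4 ± 4.64 CPM per kb, above 54.9% and 62.5% of tested genes.

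**Figure D2:**
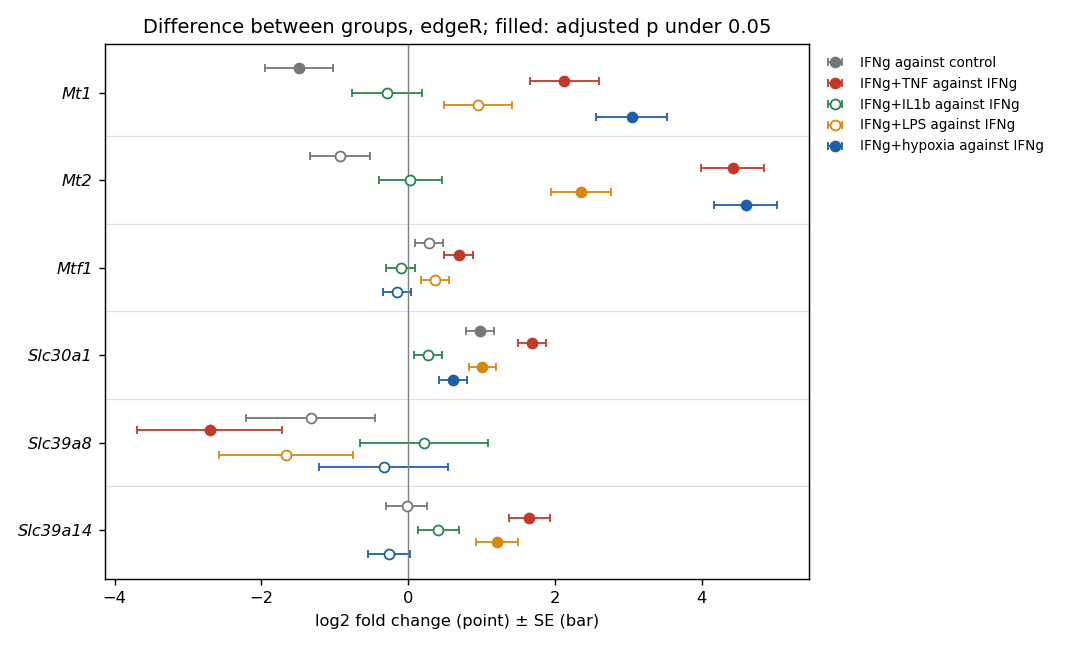
Log2 fold change (point) and its SE (bar) of each gene in the 5 comparisons, with filled points where edgeR's adjusted p was under 0.05. TNF is filled for all 6 genes and IL1b for none, and the TNF and hypoxia points of Mt2 lie close together at 4.42 and 4.60 while those of Slc39a14 lie on either side of 0.

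The proportion of the 2 metallothioneins was compared library by library. Counts of Mt2 per count of Mt1 were 0.46, 0.307 and 0.156 in the control libraries and 0.543, 0.55 and 0.158 with IFNg, so Mt1 was the more counted gene in all 6. With TNF the ratio was 1.51, 2.63 and 2.67, and Mt2 was the more counted gene in all 3 libraries. Hypoxia gave 1.23, 1.04 and 1.26, LPS gave 0.988, 1.14 and 1.11, and IL1b gave 0.41, 0.432 and 0.721. The ratio is not corrected for the genes' widths, so only its shift between groups can be read. The TNF, LPS and hypoxia libraries all lay above every IFNg library, and each of these 3 comparisons gave a two-sided exact permutation p of 0.1, the smallest that 3 libraries against 3 allow (0.167 after Benjamini-Hochberg adjustment over 5 comparisons). IL1b gave an exact p of 0.7, and IFNg against control an exact p of 0.5.

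**Figure D3:**
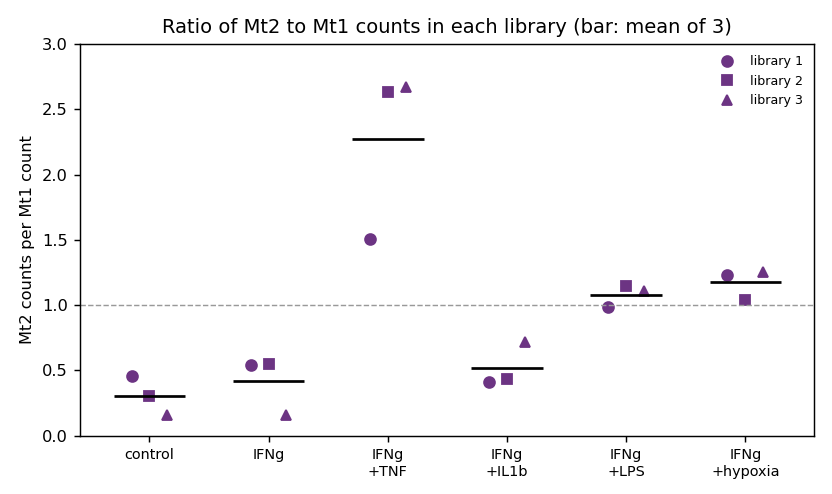
Counts of Mt2 per count of Mt1 in each of the 18 libraries (linear axis from 0), with the bar at the mean of 3 and the dashed line at a ratio of 1. The control, IFNg and IL1b libraries lie at or below 0.721, the LPS and hypoxia libraries lie between 0.988 and 1.26, and the TNF libraries lie between 1.51 and 2.67.

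Within 3 of the groups the metallothioneins shared a high or a low library. Library 1 was the highest for both metallothioneins with TNF and with hypoxia, and library 3 was the lowest for both with LPS. In the other 3 groups the order was opposite: library 3 was the highest for Mt1 and the lowest for Mt2 in the control and with IFNg, and the lowest for Mt1 and the highest for Mt2 with IL1b. Over the 18 libraries the Pearson correlation of log2 CPM between Mt1 and Mt2 was 0.839, a description over libraries that share 6 treatments.

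Mtf1, whose protein senses zinc, was called in 1 of the 5 comparisons. It stood at 33.4, 31.7 and 30.4 CPM with IFNg and at 44.3, 66.3 and 43.4 CPM with TNF, with no overlap. The log2 fold change was 0.69 ± 0.19 (SE, edgeR adjusted p = 0.00464). That call was lost without TNF library 2 (0.46, adjusted p = 0.0696) and when libraries were scaled by the totals behind the authors' RPKM values, which shift the median of all genes by -0.32 in this comparison (0.37, adjusted p = 0.125).

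LPS gave 37.9, 41.2 and 43.9 CPM of Mtf1, all above IFNg, but the difference of 0.36 ± 0.19 was not called (edgeR adjusted p = 0.206). Under hypoxia Mtf1 stood at 29.3, 32.2 and 24.4 CPM, overlapping IFNg, with a difference of -0.16 and a 95% interval of -0.55 to 0.24. It was lower under hypoxia than with TNF by 0.84 ± 0.19 on the log2 scale (edgeR adjusted p = 0.000944), while Mt2 did not differ between these 2 groups past the test, and Mt1 did so when TNF library 1 was left out. Control libraries held 30.2, 26.8 and 21.3 CPM, and those with IL1b 23.3, 34.2 and 31.6 CPM. No neighbours in the order TNF, LPS, IFNg, IL1b, hypoxia and control differed past the test.

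Slc30a1, the plasma membrane zinc exporter, rose in 4 of the 5 comparisons. It stood at 17.4, 9.47 and 20.0 CPM in the control and at 32.7, 29.1 and 30.3 CPM with IFNg, with no overlap. The rise was 0.97 ± 0.19 on the log2 scale (SE, edgeR adjusted p = 0.000273), opposite in sign to the fall of Mt1 in the same comparison. TNF took it to 80.7, 109 and 107 CPM, the highest of any group. The log2 fold change was 1.68 ± 0.19 (SE, edgeR adjusted p = 3.15e-08).

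LPS gave 59.6, 62.2 and 64.2 CPM of Slc30a1, above every IFNg library and below every TNF library. It was 1.01 ± 0.19 above IFNg on the log2 scale (SE, edgeR adjusted p = 0.000192), and the LPS level was below that of TNF by 0.67 ± 0.18 (adjusted p = 0.00736), a call lost with the RPKM totals (-0.43, adjusted p = 0.0812). Hypoxia gave 46.2, 47.2 and 47.7 CPM, also above every IFNg library, with a log2 fold change of 0.61 ± 0.19 (adjusted p = 0.0161). This call was lost with the RPKM totals (0.37, adjusted p = 0.146), which shift the median of all genes by -0.24 under hypoxia, and without IFNg library 2 or 3 (adjusted p = 0.0578 and 0.0503). Slc30a1 was lower under hypoxia than with TNF by 1.07 ± 0.19 (adjusted p = 3.64e-05). With IL1b the level was 37.3, 39.1 and 34.8 CPM, above every IFNg library, but the difference of 0.27 was not called (95% interval -0.11 to 0.66).

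The 2 importers went in opposite directions with TNF. Slc39a14 stood at 10.01, 6.53 and 11.2 CPM with IFNg and at 24.8, 30.3 and 32.2 CPM with TNF, with no overlap. Its log2 fold change was 1.65 ± 0.28 (SE, edgeR adjusted p = 2.36e-05), a 3.15-fold rise. Slc39a8 was a low-count gene with 47, 50 and 14 counts in the IFNg libraries, and it had 0, 0 and 13 counts in the TNF libraries. That is 2.45, 2.94 and 0.957 CPM with IFNg and 0, 0 and 1.02 CPM with TNF, so the third TNF library overlapped the lowest IFNg library. Slc39a8 fell by 2.70 on the log2 scale (SE 0.99, edgeR adjusted p = 0.0274). It was lost when only the 2 groups were fitted (adjusted p = 0.104) and without TNF library 1 or 2 or IFNg library 1 or 2 (adjusted p from 0.0593 to 0.0968), and a count of 0 in a library allows up to 3 counts, 0.151 to 0.255 CPM. The size of the fall rests on the 13 counts of TNF library 3: without it the TNF libraries are all at 0. At that floor of 3 counts per library, Slc39a8 is then at least 11.6-fold below the IFNg mean. This figure leaves out the TNF library that held counts and the spread among IFNg libraries, so it is not a lower bound on the fall.

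LPS raised Slc39a14 to 18.5, 30.3 and 15.4 CPM, above every IFNg library. Its log2 fold change was 1.21 ± 0.28 (SE, edgeR adjusted p = 0.0021). Slc39a8 stood at 0.811, 0.549 and 0.627 CPM with LPS, below every IFNg library, but the difference of -1.67 ± 0.92 was not called (adjusted p = 0.227). Against the control, where Slc39a8 was highest at 4.74, 7.15 and 4.12 CPM, the log2 fold change was -2.99 ± 0.94 for LPS (adjusted p = 0.0135) and -4.03 ± 1.02 for TNF (adjusted p = 0.00164).

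Neither importer was called with hypoxia or with IL1b. Under hypoxia Slc39a14 stood at 8.88, 5.53 and 8.65 CPM, with a difference of -0.26 (95% interval -0.85 to 0.32), and Slc39a8 at 1.19, 1.62 and 2.24 CPM, with a difference of -0.33 (-2.15 to 1.48). With IL1b Slc39a14 stood at 10.4, 11.3 and 15.2 CPM and Slc39a8 at 2.79, 2.55 and 2.02 CPM, overlapping IFNg for both. The Slc39a14 control libraries, 10.1, 9.60 and 8.41 CPM, overlapped those with IFNg. Per kilobase of counted width the 2 importers were nearest in the control, at 3.84 ± 1.15 for Slc39a8 and 5.72 ± 0.538 CPM per kb for Slc39a14 (SD, n = 3). With TNF they were farthest apart, at 0.245 ± 0.424 and 17.7 ± 2.32 CPM per kb.

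Across the 10 other pairs of groups, 34 of 60 tests of the 6 genes were called, 56.7% beside 33.2% over all genes tested. Slc30a1 and Mt2 differed in 8 of the 10 pairs each, Mt1, Mtf1 and Slc39a14 in 5 each, and Slc39a8 in 3. All 6 genes differed between TNF and IL1b, where 42% of tested genes were called, though Mtf1 did not with the RPKM totals (-0.47, adjusted p = 0.0532) and Slc39a8 did not without TNF library 1 or 2 (adjusted p = 0.0685 and 0.0717). Against the control, 5 of the 6 were called with TNF (49.9% of tested genes), 5 with LPS (36.9%), 3 with hypoxia (40.1%) and 2 with IL1b (26.7%). With the RPKM totals these counts were 5, 4, 4 and 2: Mtf1 with LPS was lost (0.42, adjusted p = 0.0968) and Slc39a14 with hypoxia was gained (-0.69, adjusted p = 0.0472). Single libraries also decided calls against the control: Mtf1 with LPS was lost without control library 3 (adjusted p = 0.0592), and Mt1 with IL1b without IL1b library 3 or control library 3 (0.0523 and 0.0535). Hypoxia differed from TNF for Mtf1, Slc30a1 and Slc39a14 (39% of tested genes) and from LPS for Mt1, Mt2, Mtf1 and Slc39a14 (30%). LPS differed from TNF for Mt2 and Slc30a1 (25.3% of tested genes) and from IL1b for the same pair (14.1%), and hypoxia differed from IL1b for Mt1 and Mt2 (28.3%). With the RPKM totals Slc30a1 was lost between LPS and TNF, while Slc39a14 was gained between hypoxia and IL1b (adjusted p = 0.0135), Slc30a1 between hypoxia and LPS (0.0203) and Slc39a8 between hypoxia and TNF (0.0477). Mtf1 between hypoxia and LPS was lost when LPS library 2 or 3 or hypoxia library 1 or 3 was left out (adjusted p from 0.0876 to 0.175). Leaving out LPS library 3 or IL1b library 3 added Slc39a14 between LPS and IL1b (0.0207 and 0.0466), leaving out LPS library 3 added Mt1 there (0.026), and leaving out LPS library 1 or TNF library 2 added Mt1 between LPS and TNF (0.0497 and 0.0257). Without TNF library 3, whose 13 counts of Slc39a8 are all that the TNF group holds, Slc39a8 was called against LPS (0.00197) and hypoxia (9.1e-05). Slc39a14 separated hypoxia from TNF with the largest difference of the 3 genes, lower under hypoxia by 1.92 ± 0.29 on the log2 scale (SE, edgeR adjusted p = 4.62e-06).

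The rest of the zinc machinery was read from a list of 23 other zinc transporters and metallothioneins, of which 15 were tested. Mt4, Slc30a2, Slc30a3, Slc30a8, Slc30a10, Slc39a5 and Slc39a12 had 0 counts in every library, and Mt3 was too low to test. With TNF 5 of the 15 rose and 3 fell, where 44.7% of tested genes were called, with a median log2 fold change of 0.23 that turned to -0.09 with the RPKM totals. With LPS 5 rose and 3 fell (20.3% of tested genes), with a median of 0.19. With hypoxia 4 rose and 2 fell (25.2% of tested genes; 4 and 5 with the RPKM totals), and with IFNg against control 3 rose and 2 fell (23.6%). With IL1b edgeR called 0 of the 15, DESeq2 called 1, and 1 had an unadjusted edgeR p under 0.05.

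Slc39a4 (ZIP4), best known as the zinc importer of the intestine, had the largest called changes of the list in 3 comparisons. It stood at 10.5 ± 5.13 CPM in the control (SD, n = 3), 2.34 ± 1.63 with IFNg, 60.8 ± 9.84 with TNF and 31.0 ± 13.5 with LPS. The edgeR log2 fold change was -2.14 ± 0.51 with IFNg (adjusted p = 0.00376), 4.68 ± 0.54 with TNF (adjusted p = 7.88e-07) and 3.71 ± 0.52 with LPS (adjusted p = 3.13e-05). Without IFNg library 1 these values were -2.89, 5.43 and 4.46. Slc30a4 (ZnT4), which loads zinc into vesicles, fell by 1.29 with IFNg and rose by 1.94 with TNF, 1.21 with LPS and 1.30 with hypoxia on the log2 scale (adjusted p from 6.29e-05 to 0.0142). Without IFNg library 1 the calls with IFNg, LPS and hypoxia were lost (adjusted p = 0.0643, 0.106 and 0.0634), and the hypoxia call was also lost without hypoxia library 3 (0.0548). Slc39a10 (ZIP10), a plasma membrane importer, fell by 1.40 with TNF and by 1.02 with LPS (adjusted p = 9.26e-07 and 0.00021).

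Slc30a9, a transporter linked to mitochondrial zinc, rose from 33.6 ± 5.53 CPM with IFNg to 73.7 ± 2.69 under hypoxia and 84.1 ± 10.9 with TNF (SD, n = 3). Its edgeR log2 fold change was 1.13 ± 0.16 with hypoxia (adjusted p = 7.53e-06) and 1.32 ± 0.17 with TNF (adjusted p = 1.93e-07). Slc30a7, which loads zinc into the secretory pathway, went from 39.2 ± 2.19 CPM in the control to 68.4 ± 7.59 with IFNg and 116 ± 4.5 under hypoxia. Both steps of Slc30a7 passed the edgeR test, at 0.80 ± 0.14 (adjusted p = 7.57e-05) and 0.76 ± 0.14 (adjusted p = 0.000176).

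**Figure D4:**
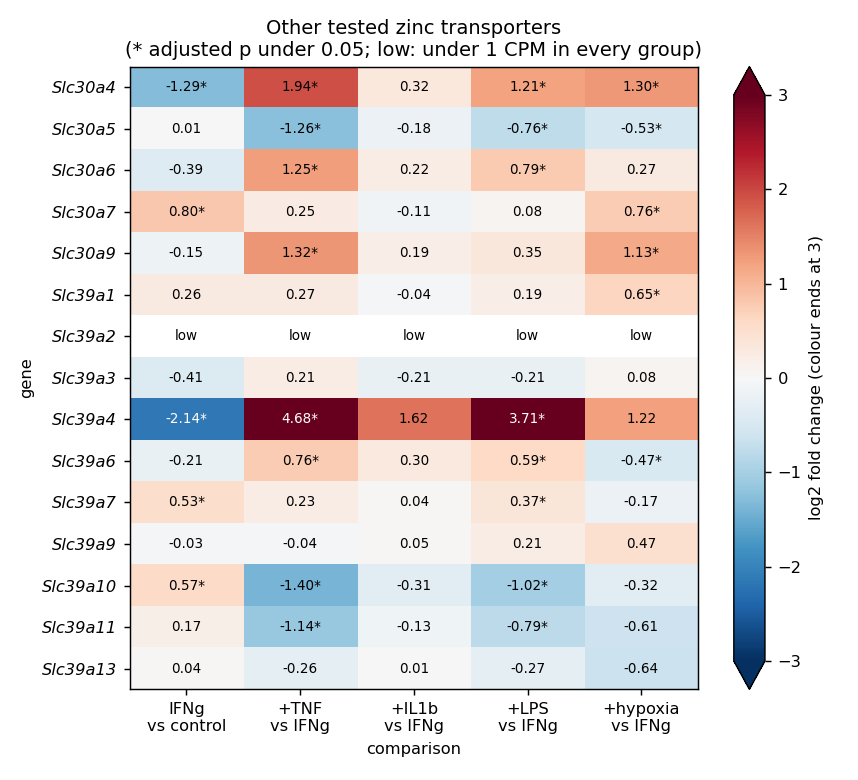
Log2 fold change of the 15 other tested zinc transporters (rows) in the 5 comparisons (columns), coloured from blue (lower) to red (higher) with the colour ending at 3, and starred where edgeR's adjusted p was under 0.05. Slc39a4 and Slc30a4 are lower with IFNg and higher with TNF and LPS, the IL1b column has no star, and Slc39a2 is left without values because it was under 1 CPM in every group.

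The handling of copper, which metallothioneins also bind, was read from 13 listed genes, 10 of them tested. With TNF 5 rose and 1 fell (5 and 3 with the RPKM totals), beside 44.7% of all tested genes called, and with hypoxia 4 rose and 1 fell (2 and 1), beside 25.2%. With LPS 2 rose and 0 fell, beside 20.3%, and with IFNg 3 rose and 2 fell, beside 23.6%. The high-affinity copper importer Slc31a1 went from 54.6 ± 6.48 CPM in the control to 153 ± 4.64 with IFNg (SD, n = 3), a log2 fold change of 1.48 ± 0.11 (SE, edgeR adjusted p = 4.24e-11). The copper pump Atp7b was near 0 with IFNg, at 0.127 ± 0.111 CPM, and stood at 8.15 ± 0.958 CPM with TNF and 8.07 ± 2.74 CPM under hypoxia (edgeR adjusted p = 0.000235 and 0.000579). The metalloreductase Steap3 fell by 2.53 on the log2 scale with TNF and by 1.16 with hypoxia (adjusted p = 2.55e-12 and 4.54e-06).

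Carriers of iron and manganese, metals that Slc39a8 and Slc39a14 also move, were read from 8 genes, all tested. With TNF 7 rose and 0 fell (4 and 1 with the RPKM totals), beside 44.7% of all tested genes called, and with LPS 4 rose and 0 fell, beside 20.3%. With hypoxia 0 rose and 1 fell, beside 25.2%, and with IFNg 3 rose and 1 fell, beside 23.6%. The median log2 fold change was 0.79 with TNF (0.47 with the RPKM totals), 0.86 with LPS, -0.11 with hypoxia and 0.24 with IFNg. The iron exporter Slc40a1 (ferroportin) fell from 55.6 ± 8.43 CPM in the control to 10.1 ± 2.003 with IFNg (SD, n = 3) and stood at 80.5 ± 17.7 with TNF and 94.6 ± 19.2 with LPS. Its edgeR log2 fold change was -2.46 ± 0.22 with IFNg (adjusted p = 1.39e-09), 2.99 ± 0.23 with TNF (adjusted p = 2.14e-11) and 3.23 ± 0.23 with LPS (adjusted p = 4.22e-11). Slc11a1 (Nramp1), which moves divalent metals out of the phagosome, rose from 416 ± 38.0 CPM to 1241 ± 97.9 with TNF and 971 ± 202 with LPS (adjusted p = 1.08e-10 and 5.19e-08). The transferrin receptor gene Tfrc fell under hypoxia by 1.43 on the log2 scale (adjusted p = 0.000134).

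Transcription factors and cytokine genes known to act on metallothionein genes were read from 12 listed genes, 11 of them tested. With TNF 5 rose and 2 fell (3 and 4 with the RPKM totals), beside 44.7% of all tested genes called, and with LPS 3 rose and 3 fell, beside 20.3%. With hypoxia 4 rose and 0 fell (2 and 0), beside 25.2%, and with IFNg 2 rose and 2 fell (2 and 5), beside 23.6%. Hif1a, the oxygen-regulated subunit of the hypoxia-inducible factor, rose from 120 ± 9.17 CPM in the control to 328 ± 21.1 with IFNg (SD, n = 3) and to 1670 ± 186 with TNF. Its edgeR log2 fold change was 1.45 ± 0.11 with IFNg (adjusted p = 4.74e-11) and 2.35 ± 0.11 with TNF (adjusted p = 3.01e-15). Il6, a cytokine known to induce metallothioneins, had 0 counts in all IFNg libraries and stood at 17.6 ± 5.19 CPM with TNF and 2.30 ± 0.847 CPM with LPS (edgeR adjusted p = 6.88e-08 and 3.12e-05), while its receptor gene Il6ra fell by 1.71 with TNF and by 0.83 with LPS on the log2 scale. Under hypoxia the shared receptor subunit Il6st rose by 0.87 ± 0.15 (adjusted p = 0.0001) and the glucocorticoid receptor gene Nr3c1 by 0.70 ± 0.11 (adjusted p = 3.05e-05). With IL1b edgeR called 0 genes of the copper, iron and regulator lists, with 2, 4 and 3 at an unadjusted p under 0.05, and DESeq2 called 0, 0 and 1.

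Genes with the most similar pattern over the 18 libraries were taken by Pearson correlation of log2 CPM among 8772 tested genes with a mean of at least 5 CPM. These values describe a likeness over 6 treatments and carry no test. For Mt1 they were Pygl (0.935), Cd81 (0.923) and Galk1 (0.921), and for Mt2 they were Cytip (0.965), Mthfd1l (0.961) and Kdm5b (0.946), so the 2 neighbours shared none of their nearest 3. For Slc30a1 they were Spred2 (0.977), Tgm2 (0.973) and Ifi205 (0.973). Slc39a14 was nearest to Pkp4 (0.938), Smg8 (0.935) and Plk3 (0.933), and Slc39a8 to Rgs10 (0.922), Daglb (0.921) and Sesn1 (0.915). The closest to Mtf1 were Zcchc2 (0.896), Usp4 (0.892) and Metap1 (0.890). Among the 6 genes themselves, Slc39a8 ran against Slc30a1 (-0.821) and Mtf1 (-0.818), and Mt1 had little relation to Slc39a14 (-0.03) or Mtf1 (-0.06).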

How the data were processed

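For every gene, the deposited files hold a read count made by the authors, a width in bases and an RPKM value. Per the labels' protocols, a stranded poly(A) library kit was used on 100 ng of total RNA, read as single ends of 50 bases, and per the submitters' processing notes reads were aligned with GSNAP to mm10. Which program and annotation made the counts, whether strand was used, and the versions: not given in the sources used here. Of 22355 genes with a GENCODE coding length, 91.2% had a width within 5% of their joined coding exons, so counts were read as coding counts that leave out untranslated bases. The RPKM values deposited by the authors were used only for the library totals they imply (22728833 to 39859629, of which 51.68 to 56.45% were counted).

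Counts were tested with edgeR 4.0.16 (R 4.3.3; TMM factors 0.805 to 1.186, filterByExpr, robust glmQLFit and glmQLFTest) in 1 model over the 18 libraries, with Benjamini-Hochberg adjustment over 11563 genes. CPM divides a gene's count by the TMM-scaled sum of counts over tested genes. A floor of 3 counts is 0.151 to 0.255 CPM, and it covers counting error only. The test was checked on simulated counts. Alternatives were DESeq2 1.42.0, RLE factors, RPKM totals, no filter, only the 2 groups compared, the replicate number as a block, and each library left out. The titles repeat the marks M1 to M3 in every group, but no label says what they stand for. For that reason the main model used no block. Not every pair of same-numbered libraries deviated together, which alone does not show that the numbers are unpaired. Promoter windows are from RefSeq (GRCm38.p6), and 5 of the 6 genes matched.

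The members, lists and tests were chosen with earlier results of these data known. Named were the 6 genes, from each list at most the 3 called genes with the largest change per comparison, and for each member its 3 nearest genes by correlation.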

Additional observations from a re-analysis of the deposited data

How the results depend on the processing

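Of 360 alternatives for the 30 differences of the 6 genes, 338 kept their direction and side of the threshold, 15 lost the call, 1 gained it and 6 changed sign. None of the 6 that changed sign was called in any fit. Leaving out 1 library at a time, Mt2 with IL1b ran from -0.29 to 0.37, Mtf1 with IL1b from -0.22 to 0.048, Slc39a8 with IL1b from -0.13 to 0.52, and Slc39a14 with IFNg against control from -0.18 to 0.18. For the other named genes, 531 of 540 alternatives kept the call and 9 lost it. Without the filter on low counts 1 of the 6 genes was called for IFNg against control. With each library left out in turn, 1 to 2 genes were called for IFNg against control, 4 to 6 with TNF, 3 with LPS and 2 to 3 with hypoxia, and 15 to 35 of all genes with IL1b. Over all genes, IL1b gave 79 calls with DESeq2 and 68 with only its 2 groups fitted. The RPKM totals shift the median of all genes by -0.15 with IFNg, -0.32 with TNF and -0.24 with hypoxia, and turn the calls from 1566 higher and 1161 lower into 1207 and 1796 with IFNg, from 2560 and 2614 into 1685 and 3985 with TNF, from 1184 and 1164 into 962 and 1441 with LPS, and from 1556 and 1362 into 888 and 2564 with hypoxia. The cause of these changes was not tested.

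Deviations from the group means correlated between libraries of the same number by -0.095 to 0.233 (median 0.0355 over 45 pairs). Between libraries of different numbers they correlated by -0.193 to 0.175 (median -0.0265 over 90 pairs). By mean correlation, 12 of 18 libraries were closest to their own number, which is a hint from the data and not from the design. With the replicate number as a block, Mt2 with IFNg became called (-0.97, edgeR adjusted p = 0.0402), and 3 genes rather than 2 were called in that comparison. The block gave 2917, 5340, 48, 2515 and 3112 calls over all genes for IFNg, TNF, IL1b, LPS and hypoxia and changed no other call of the 6 genes. Depth limits Slc39a8, which had at most 117 counts in a library.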
